A study of Mus musculus with 14 samples.

Results

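The Nduf genes encode subunits and assembly factors of respiratory complex I, and they were taken as all genes of the count table whose symbol starts with Nduf. There were 45 of them among 23412 genes, of which 20563 had values in RNA and in footprints. By their known roles, 36 were subunits of the complex, 7 were assembly factors (Ndufaf1 to Ndufaf7), and Ndufa4 and Ndufa4l2 were kept apart because Ndufa4 is now assigned to complex IV. Matching the symbols to RefSeq found all 45, each as a protein-coding gene.

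Complex I is the entry point of electrons from NADH into the mitochondrial respiratory chain. Its peripheral arm, in the matrix, holds the flavin and the iron-sulfur clusters that carry electrons to ubiquinone, and its membrane arm pumps protons. Core subunits do the catalysis, accessory subunits surround and stabilise them, and assembly factors join only while the complex is being built. Neurons depend strongly on this chain for ATP. The core subunits of the membrane arm are encoded in mitochondrial DNA and were not analysed here, nor was the accessory subunit Ndufb1.

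The samples were cortex of mice, measured by RNA-seq and by ribosome profiling. Ribosome profiling counts footprints, the stretches of mRNA that a ribosome covers and so protects from digestion. Control mice were Rpl22flox/flox;CamKCre+, and knock-out mice carried Fmr1X-Y on the same Rpl22flox/flox;CamKCre+ background, so the floxed Rpl22 alleles and the CamK-driven Cre were shared by both genotypes. The source is named as CAMKIIa-Ribotag mouse brain, although the protocols describe monosomes from whole lysates and name no pull-down of tagged ribosomes. Ages were not stated in the sources used here. RNA was measured in 4 control mice (1, 3, 6 and 8) and 4 knock-out mice (2, 4, 5 and 7), and footprints in 3 control mice (1, 3 and 9) and 3 knock-out mice (2, 4 and 10).

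Members that moved together in RNA raise the question of what their promoters share, so 3 promoters are shown: that of Ndufa1, the subunit with the largest rise in translational efficiency, and those of Ndufa6 and Ndufa8, which hold the same motif but differ in their RNA result. Each is the 250 bases before the RefSeq start of the gene (GRCm38.p6), 5′ to 3′ on the gene's strand, in lower case. Capitals mark GCATGCGC, the core of the site of nuclear respiratory factor 1. The positions are chrX:37191239-37191488 (minus strand) for Ndufa1, chr15:82354292-82354541 (minus strand) for Ndufa6 and chr2:36049339-36049588 (minus strand) for Ndufa8.
Ndufa1: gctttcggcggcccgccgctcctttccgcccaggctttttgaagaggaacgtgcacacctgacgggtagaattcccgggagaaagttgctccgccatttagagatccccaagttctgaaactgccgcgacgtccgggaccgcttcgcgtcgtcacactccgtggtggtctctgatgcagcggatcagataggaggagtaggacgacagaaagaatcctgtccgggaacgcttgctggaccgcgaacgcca
Ndufa6: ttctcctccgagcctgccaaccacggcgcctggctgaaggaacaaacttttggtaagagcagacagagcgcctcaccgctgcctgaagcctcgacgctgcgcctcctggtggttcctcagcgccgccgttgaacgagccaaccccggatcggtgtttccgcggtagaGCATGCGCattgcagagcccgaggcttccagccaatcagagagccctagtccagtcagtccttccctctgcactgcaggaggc
Ndufa8: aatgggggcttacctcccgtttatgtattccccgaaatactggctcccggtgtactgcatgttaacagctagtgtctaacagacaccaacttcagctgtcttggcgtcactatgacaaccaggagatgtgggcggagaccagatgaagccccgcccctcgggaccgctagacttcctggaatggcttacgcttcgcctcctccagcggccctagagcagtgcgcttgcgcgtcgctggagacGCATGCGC

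GCATGCGC was present in the promoters of Ndufa6, Ndufa8, Ndufa11 and Ndufaf4, searched on both strands. Of the RefSeq promoters that matched a member (41 promoters of 39 members), 3 of 34 subunit promoters (8.82%) and 1 of 6 assembly factor promoters held it, against 2.26% of all 32851 promoters. CCGGAAG, the core of the ETS family site that GABP binds, was in 3 of 34 subunit promoters (Ndufb6, Ndufb7 and Ndufs3) and in that of Ndufaf1, against 6.91% of all. AAGGTCA, the half-site of estrogen-related receptors, was in 3 of 34 (Ndufb2, Ndufb4 and Ndufs5) and in no assembly factor, against 4.08% of all. AAGATGGC, part of the YY1 site, was in none, against 1.56% of all. No member promoter held more than 1 of the 4 motifs. In Ndufa11 and Ndufaf4 the matches of GCATGCGC on the 2 strands overlapped, and a match describes the sequence alone. Among the 4 members with GCATGCGC, Ndufa6 was called lower in RNA and the other 3 were not.

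RNA libraries held 8847547 to 11371851 counts and footprint libraries 4124065 to 6033030. Fmr1 RNA was at 82.9 CPM (library-scaled counts, with TMM factors) in controls and 21.7 CPM in knock-out mice, and its footprints were at 113 and 7.44 CPM, in the direction of the labels. Pairs among the RNA libraries of knock-out mice 2, 4 and 7 were close to sampling noise (chi-square per degree of freedom 1.18 to 1.32), whereas pairs with knock-out mouse 5 lay at 5.64 to 6.02 and pairs of control mouse 8 with other controls at 4.03 to 11.8. The value of 4.03 was that of control mice 6 and 8. Among the other controls, mice 1 and 3 lay at 1.99, and mouse 6 lay at 4.12 and 4.57 from them. Footprint pairs of the same genotype lay at 1.15 to 1.42. The labels number the samples by mouse. Whether the RNA libraries of knock-out mice 2, 4 and 7, or the footprint libraries within either genotype, came from separate animals was not tested. No footprint test was run with libraries summed. P-values measure only the spread between these samples, which may be technical. Markers of excitatory neurons were present in all libraries, with a summed RNA level of 2086 to 2367 CPM in controls and 2668 to 2960 CPM in knock-out mice. In footprints the order of this sum was opposite, at 4419 to 4522 and 4173 to 4295 CPM. Among its 6 genes Camk2a (log2 0.75) and Slc17a7 (0.20) were called higher in RNA, and the other 4 were not called. In footprints Camk2a was called lower (-0.14), Slc17a7 and Neurod6 higher (0.078 and 0.26), and the other 3 were not called. The 6 oligodendrocyte markers summed to 4884 to 5327 CPM in control RNA and 4267 to 4594 CPM in knock-out RNA, and the 5 hypothalamus markers to 33.9 to 64.9 and 14.9 to 21.1 CPM. Their footprints were at 8194 to 8353 and 8007 to 8049 CPM for oligodendrocytes and at 91.8 to 102 and 33.4 to 35.2 CPM for hypothalamus. Footprint sums of the 5 choroid plexus markers were 12.5 to 15.8 CPM in controls and 6.64 to 11.6 CPM in knock-out mice. In footprints the 6 astrocyte markers summed to 1728 to 1770 CPM in controls and 1611 to 1620 CPM in knock-out mice, and the 6 inhibitory neuron markers to 1621 to 1667 and 1694 to 1721 CPM, while the RNA sums of these last 3 lists overlapped between genotypes. Of the 6 astrocyte genes, Gfap and Aqp4 were called lower in RNA (-0.47 and -0.46) and 4 were not called, 2 of them above 0. No marker of these 6 lists was at 0 in all RNA libraries, and the part of these shifts in the results below was not tested. In bulk tissue, fewer cells of a type and less RNA per cell cannot be told apart.

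In the knock-out cortex, RNA calls among the complex I subunits were all towards lower levels and footprint calls, with 1 exception, towards higher levels, and 6 subunits were called in both ways. A gene is called when edgeR's quasi-likelihood test gave a Benjamini-Hochberg adjusted p under 0.05 over all genes tested. In RNA, 13 of 36 subunits were called lower and 0 higher (0 also at an unadjusted p under 0.05 and with DESeq2), where 3.88% of all genes were called lower and 3.53% higher. The 13 fell to 7 without control mouse 6 or knock-out mouse 2, 4 or 7 (1.36% to 2.02% of all genes). They fell to 0 with the RNA of knock-out mice 2, 4 and 7 summed (0.264% of all genes). In footprints, 20 of 34 subunits with enough counts were called higher and 1 lower, where the shares of all genes were 11.9% and 13.6%. DESeq2 called 15 higher and 0 lower in footprints, where the shares of all genes were 6.36% and 8.62%. In translational efficiency (TE), which sets footprints against RNA, 17 of 34 were called higher, against 3.59% of all genes. None was called lower in TE (0 also at an unadjusted p under 0.05 and with DESeq2), against 4.07% of all genes.

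The median log2 fold change of the subunits, knock-out over control, was -0.12 in RNA, 0.14 in footprints and 0.28 in TE. Over all genes tested it was -0.0012, 0.0054 and -0.0026. The direction was shared widely: 30 of 36 subunits were below 0 in RNA, 28 of 34 above 0 in footprints and 31 of 34 above 0 in TE. Changes were small, with called RNA differences between -0.48 and -0.22 and footprint differences called higher between 0.090 and 0.40 on the log2 scale. TE is built from the same libraries as the other 2 comparisons, so the 3 are not independent.

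**Figure D1:**
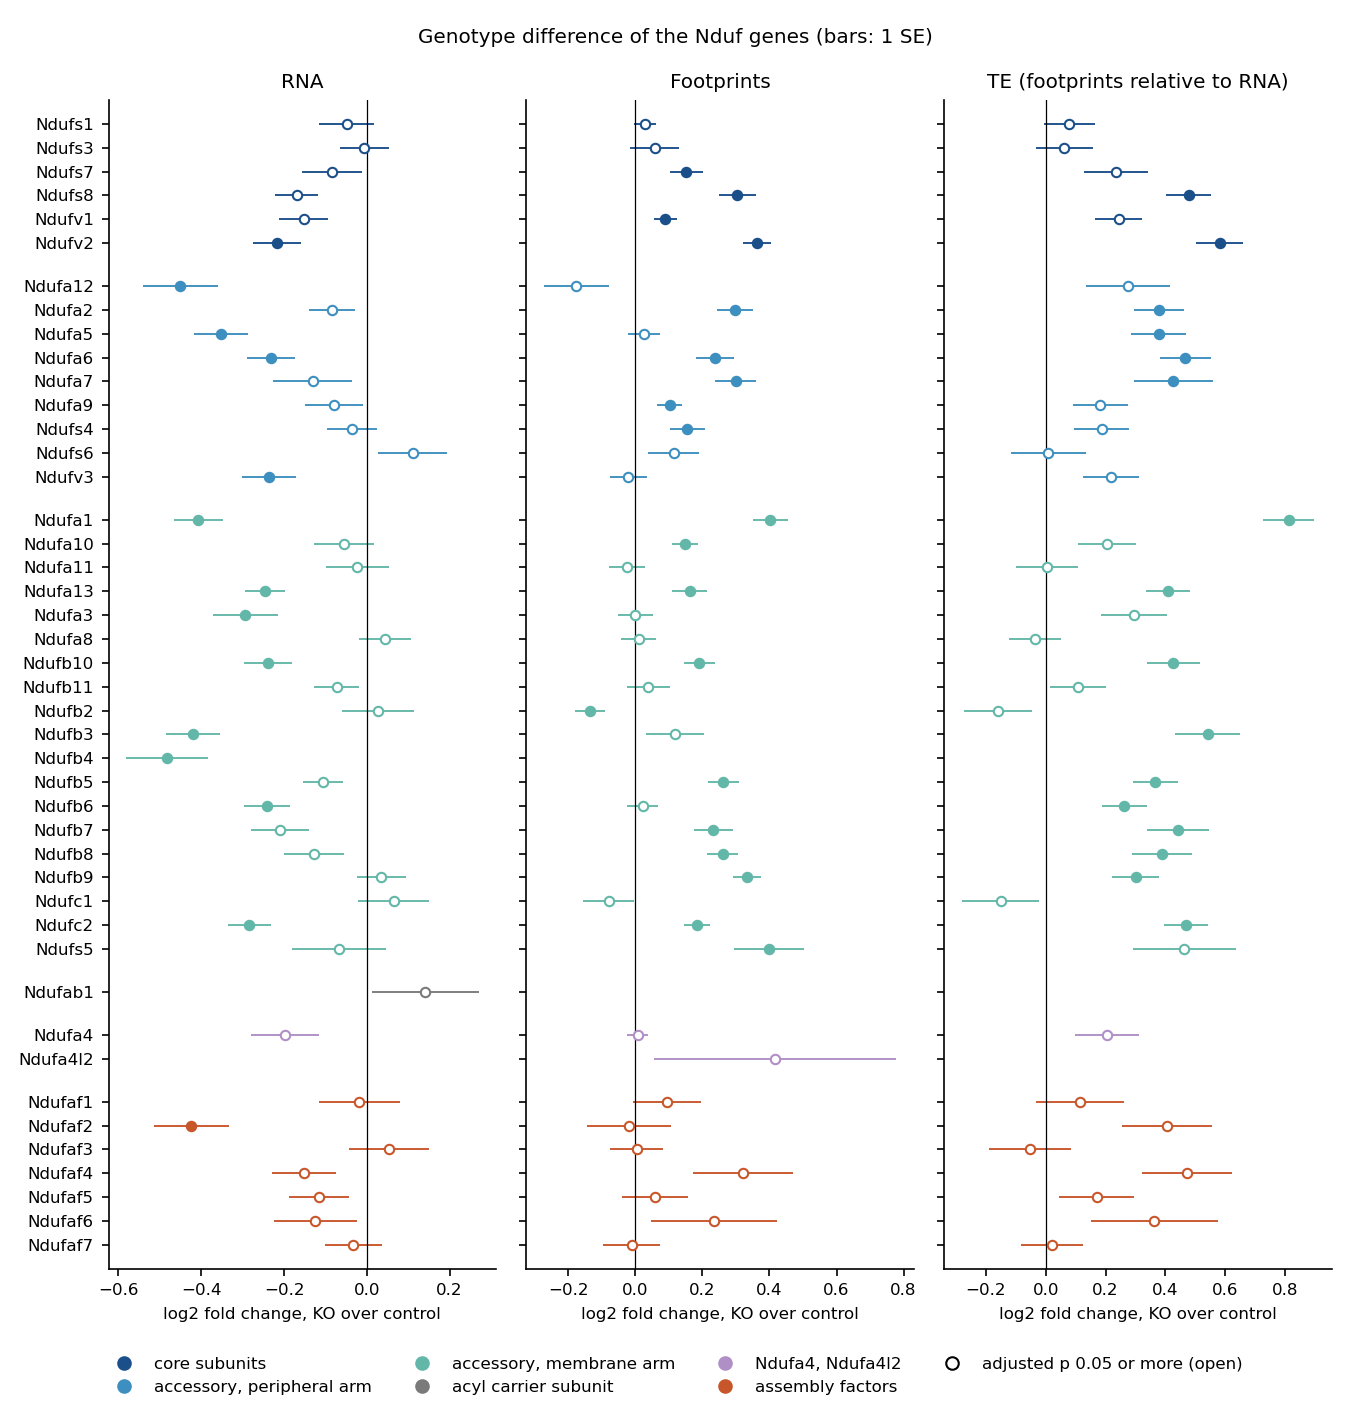
Log2 fold change (x axis, knock-out over control) with 1 SE of 44 Nduf genes in RNA, footprints and TE, ordered by role, where tested. Filled points have an adjusted p under 0.05. The 13 filled subunits in RNA lie left of 0, 19 of 20 in footprints lie right of 0, and all 16 drawn in TE lie right of 0.

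Library by library, the mean of the subunits separated by genotype. The mean deviation of the subunits from each gene's average (log2 CPM, over the 34 subunits tested in both assays) was 0.059 to 0.082 in the 4 control RNA libraries and -0.088 to -0.058 in the 4 knock-out RNA libraries. In footprints it was -0.089 to -0.053 in controls and 0.049 to 0.093 in knock-out mice. The groups did not overlap in either assay, and their order was opposite in the 2 assays. Gene by gene, every knock-out library lay below every control library in RNA for 16 of 36 subunits, against 7.97% of all genes. Every knock-out footprint library lay above every control library for 18 of 34, against 18.1% of all genes.

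Sample titles carry a prefix, which may mark a preparation, and the subunits were compared within each prefix. In RNA the median subunit difference was -0.15 within the prefix of mice 1 and 2, -0.13 within that of mice 3 and 4, and -0.14 within that of mice 5 to 8. In footprints it was 0.099, 0.18 and 0.14 within the prefixes of mice 1 and 2, mice 3 and 4, and mice 9 and 10. Each prefix showed the same sign as the pooled value.

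**Figure D2:**
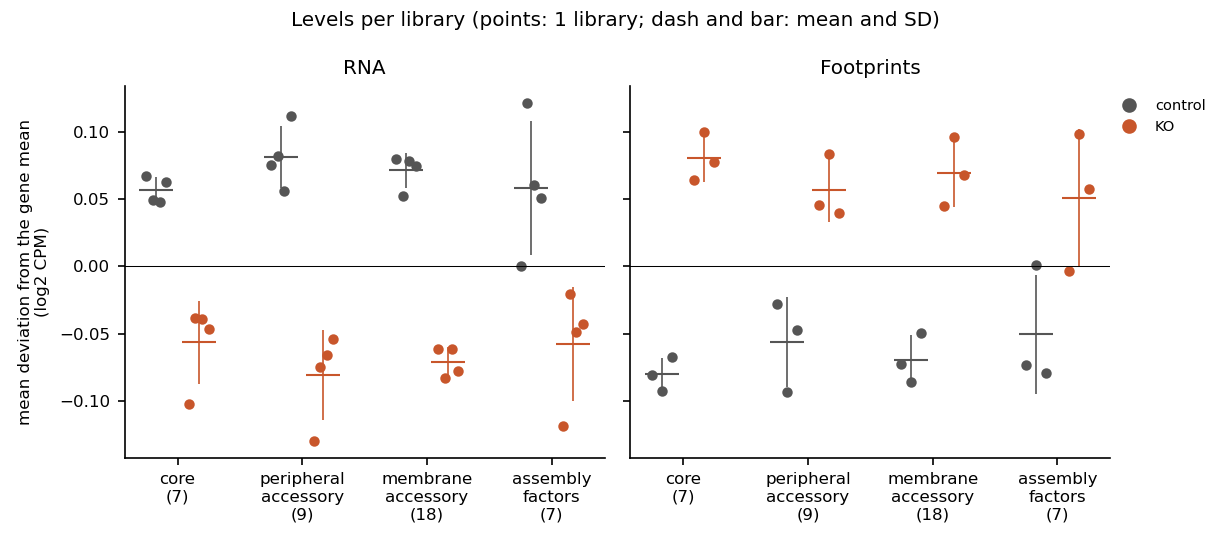
Mean deviation of each role's genes from their average over libraries (y axis, log2 CPM) in RNA and footprints, for genes tested in both assays. Points are libraries, with the mean and SD of each genotype. In the 3 subunit roles control and knock-out libraries do not overlap, and assembly factor footprints overlap, with controls reaching 0.00053 and knock-out mice starting at -0.0037.

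The calls of the 3 comparisons fell into a few classes. Of the 17 subunits called higher in TE, 6 were called lower in RNA and higher in footprints (Ndufa1, Ndufa6, Ndufa13, Ndufb10, Ndufc2 and Ndufv2), a combination that 0.469% of all genes showed. Another 8 were called higher in footprints with no call in RNA, among them Ndufa2, Ndufb5 and Ndufs8. The other 3 were called lower in RNA with no call in footprints (Ndufa5, Ndufb3 and Ndufb6). In the alternative columns of exon counts, Ndufa2 and Ndufs8 were called lower in RNA as well (-0.20 and -0.18, adjusted p = 0.0348 and 0.0460, edgeR). Outside TE, 6 subunits were called only by their footprints (Ndufa9, Ndufa10, Ndufs4, Ndufs5, Ndufs7 and Ndufv1), and Ndufa3, Ndufa12 and Ndufv3 by their lower RNA. No test called Ndufa8, Ndufa11, Ndufb11, Ndufc1, Ndufs1, Ndufs3 or Ndufs6.

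Among the nuclear core subunits, Ndufv2 and Ndufs8 had the largest differences in footprints and in TE. Ndufv2, an iron-sulfur subunit of the NADH-oxidising module, had RNA levels of 305, 316, 320 and 360 CPM in controls and 273, 282, 289 and 275 CPM in knock-out mice. Its footprints were at 193, 190 and 193 CPM in controls and 260, 238 and 243 CPM in knock-out mice. Neither assay overlapped between genotypes, and the assays moved in opposite directions. The log2 fold changes of Ndufv2 were -0.22 ± 0.058 in RNA (SE, adjusted p = 0.0355, edgeR), 0.36 ± 0.041 in footprints (adjusted p = 4.99e-12) and 0.58 ± 0.080 in TE (adjusted p = 8.80e-05). The RNA call was lost in 9 of 18 alternatives, and the span of Ndufv2 overlaps that of Ankrd12 in RefSeq.

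Ndufs8, which carries iron-sulfur clusters close to the quinone site, showed a like pattern. RNA was at 91.1, 94.0, 90.7 and 93.3 CPM in controls and at 81.5, 84.3, 82.7 and 79.6 CPM in knock-out mice. Footprints were at 104, 108 and 113 CPM in controls and 136, 134 and 132 CPM in knock-out mice. All knock-out libraries lay below the controls in RNA and above them in footprints. Ndufs8 was 1.24-fold higher in footprints (log2 0.30 ± 0.054 SE, adjusted p = 3.43e-06, edgeR) and 1.39-fold higher in TE (0.48 ± 0.075 SE, adjusted p = 3.69e-04), and its RNA difference of -0.17 ± 0.052 SE missed the threshold (adjusted p = 0.0598).

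Other core subunits differed less. Ndufs7, which holds the last iron-sulfur cluster before quinone, was at 150 ± 4.37 and 167 ± 15.8 CPM in footprints (SD, n = 3 each; log2 0.15, adjusted p = 0.0160, edgeR), with knock-out mouse 2 at 150.4 CPM inside the control range. Ndufv1, the flavin-bearing subunit that oxidises NADH, was at 312 ± 5.83 and 332 ± 6.48 CPM in footprints (log2 0.090, adjusted p = 0.0441). The footprint calls of Ndufs7 and Ndufv1 were lost in 5 and 7 of 11 alternatives. Ndufs1, the largest core subunit, and Ndufs3 were not called in any comparison, with footprint differences of 0.030 ± 0.033 and 0.057 ± 0.074 (SE).

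Among the 9 accessory subunits of the peripheral arm, 4 were called lower in RNA, 5 higher in footprints and 4 higher in TE (3.88%, 11.9% and 3.59% of all genes), with medians of -0.13, 0.11 and 0.27. Ndufa12, a late-joining subunit, had the largest RNA fall of this arm: 56.7, 61.1, 57.2 and 75.4 CPM in controls and 43.6, 47.4, 48.0 and 44.5 CPM in knock-out mice (log2 -0.45 ± 0.090 SE, adjusted p = 0.0095, edgeR). Its footprints did not rise, at 40.1, 36.6 and 42.4 CPM in controls and 33.7, 37.2 and 34.4 CPM in knock-out mice (log2 -0.18 ± 0.096 SE, adjusted p = 0.181). Ndufa12 was therefore lower in RNA without the footprint rise seen in many other members. RefSeq lists a pseudogene copy of it, Ndufa12-ps, so its counts are uncertain.

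Ndufa6, a LYR-motif protein that anchors the acyl carrier protein, was called in all 3 comparisons. RNA fell from 115 ± 3.11 to 97.6 ± 6.36 CPM (SD, n = 4 each) and footprints rose from 102 ± 3.52 to 120.0 ± 4.92 CPM (SD, n = 3 each). The footprint to RNA ratio of Ndufa6 went from 0.891 to 1.23 (TE 0.47 ± 0.085 SE, adjusted p = 0.00136, edgeR). Ndufa5 was called lower in RNA (log2 -0.35) and higher in TE (0.38) with footprints at 0.026, and Ndufv3, a partner of Ndufv1 and Ndufv2, lower in RNA only (-0.24). Ndufa2 and Ndufa7 were called higher in footprints (0.30 each) and in TE (0.38 and 0.43), the TE call of Ndufa7 at an adjusted p of 0.0499 that 12 of 20 alternatives lost. Ndufa9, a quinone-site neighbour, and Ndufs4, known for Leigh-like disease when lost, were called higher in footprints only (0.10 and 0.15). Their footprint calls were lost in 7 and 4 of 11 alternatives. Ndufs6, a zinc-binding subunit, was not called.

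The 19 accessory subunits of the membrane arm included the largest changes, with 8 called lower in RNA, and of the 18 with enough footprints, 10 called higher and 1 lower there and 10 higher in TE. Over all genes these shares were 3.88% in RNA, 11.9% and 13.6% in footprints and 3.59% in TE. Medians were -0.13 in RNA, 0.15 in footprints and 0.33 in TE. Ndufa1, a small subunit needed for assembly at the junction of the arms, led the called members in footprints and TE. Its RNA was at 98.3, 87.2, 95.5 and 99.95 CPM in controls and 72.3, 73.4, 73.2 and 68.4 CPM in knock-out mice. Its footprints were at 114, 119 and 123 CPM in controls and 153, 166 and 152 CPM in knock-out mice. Both assays separated the genotypes by a gap wider than the spread within either group.

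In fold terms Ndufa1 stood at 0.754 of control in RNA and at 1.32 of control in footprints. The log2 fold changes of Ndufa1 were -0.41 ± 0.060 in RNA (SE, adjusted p = 0.00157, edgeR), 0.40 ± 0.052 in footprints (adjusted p = 3.45e-10) and 0.81 ± 0.086 in TE (adjusted p = 5.05e-06). Mice with both assays gave the same order, with a footprint to RNA ratio of 1.16 and 1.37 in control mice 1 and 3 and of 2.12 and 2.26 in knock-out mice 2 and 4. The span of Ndufa1 overlaps that of Rnf113a1 in RefSeq.

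**Figure D3:**
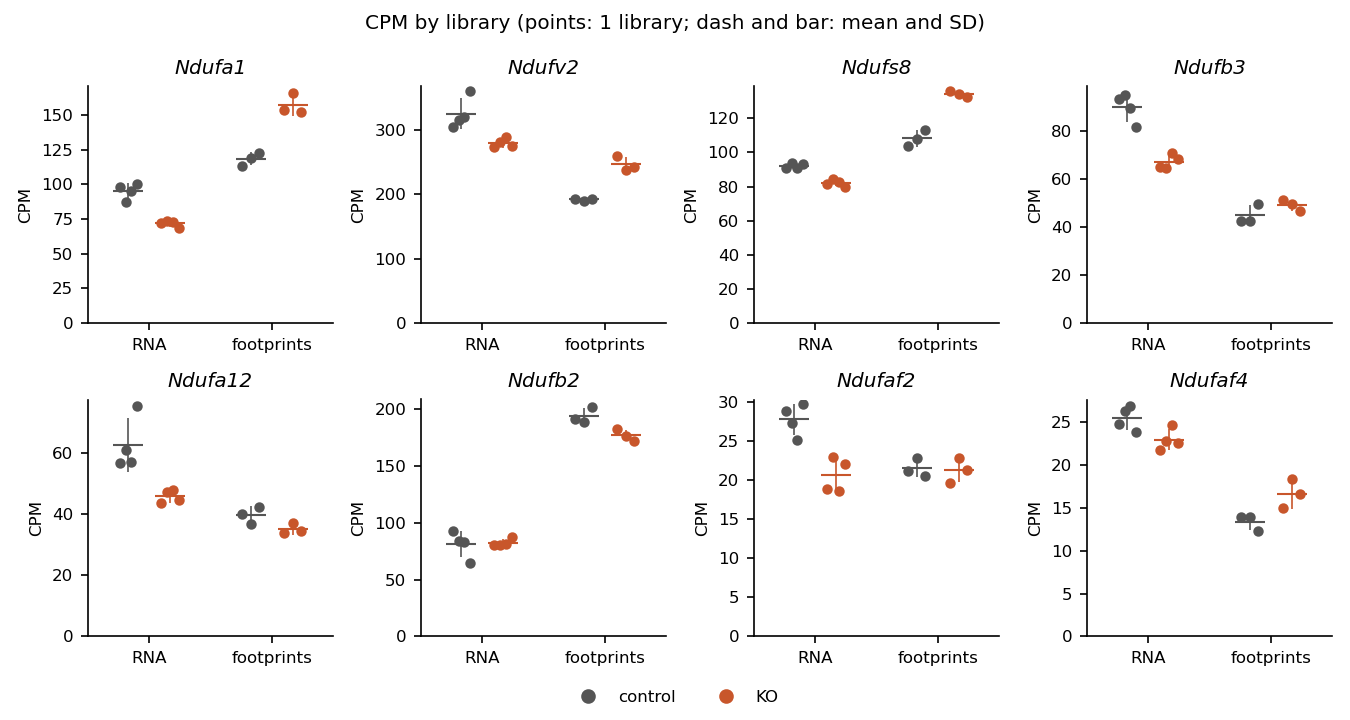
CPM (y axis, from 0) of 8 Nduf genes in each RNA and footprint library, with the mean and SD of each genotype. Ndufa1, Ndufv2 and Ndufs8 have lower knock-out points in RNA and higher ones in footprints without overlap, Ndufb3, Ndufa12 and Ndufaf2 have lower RNA only, Ndufb2 has lower footprints and Ndufaf4 has higher footprint points without a call (adjusted p = 0.107, edgeR).

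Ndufb3, a single-pass subunit of the distal membrane arm, fell in RNA with little change in footprints. RNA was at 93.3, 95.03, 89.3 and 81.3 CPM in controls and 65.0, 64.4, 70.9 and 68.1 CPM in knock-out mice (log2 -0.42 ± 0.064 SE, adjusted p = 0.00197, edgeR). Footprints were at 42.2, 42.6 and 49.6 CPM in controls and 51.0, 49.3 and 46.5 CPM in knock-out mice (log2 0.12 ± 0.086 SE, adjusted p = 0.341). The RNA groups stood apart and the footprint groups overlapped. Its ratio of footprints to RNA was the lowest of the tested members in controls, 0.499, and reached 0.729 in knock-out mice (TE 0.54 ± 0.11 SE, adjusted p = 0.00309).

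The other subunits called in several comparisons were Ndufa13 (GRIM-19), Ndufb10 and Ndufc2, each lower in RNA (-0.25, -0.24 and -0.28) and higher in footprints (0.16, 0.19 and 0.18) and TE (0.41, 0.43 and 0.47). Ndufb5, Ndufb7, Ndufb8 and the LYR-motif subunit Ndufb9 were called higher in footprints (0.26, 0.23, 0.26 and 0.33) and TE (0.37, 0.44, 0.39 and 0.30). Ndufb6 was called lower in RNA (-0.24) and higher in TE (0.26), Ndufa3 lower in RNA only (-0.29), and Ndufa10, a kinase-like subunit, higher in footprints only (0.15). Calls differed in how well they held. In RNA, those of Ndufa3 and Ndufv3 were lost in 11 and 13 of 18 alternatives, those of Ndufa6 and Ndufb10 in 9 each and that of Ndufb6 in 8. In footprints that of Ndufa9 was lost in 7 of 11, that of Ndufa13 in 5 and that of Ndufs4 in 4. In TE that of Ndufb6 was lost in 11 of 20. By contrast, the TE calls of Ndufa1, Ndufa2, Ndufa6, Ndufa13, Ndufb3, Ndufb5, Ndufb10, Ndufc2, Ndufs8 and Ndufv2 held in all 20.

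Ndufs5, an intermembrane-space subunit, had the largest called footprint rise after Ndufa1. Footprints were at 28.1, 26.8 and 27.8 CPM in controls and 33.2, 39.9 and 35.6 CPM in knock-out mice (log2 0.40 ± 0.10 SE, adjusted p = 0.00187, edgeR). No knock-out library reached down to the controls. Its RNA did not differ beyond the spread (-0.067 ± 0.11 SE, adjusted p = 0.774). The gene had 258 to 356 RNA counts per library but 0 in each of the 8 columns of exon counts, and RefSeq lists a transcribed copy, Ndufs5-ps, so its values are uncertain.

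Ndufb2, a small subunit of the membrane arm, was the 1 subunit called lower in footprints. Its footprints were at 191, 189 and 201 CPM in controls and 182, 176 and 172 CPM in knock-out mice (log2 -0.13 ± 0.044 SE, adjusted p = 0.0161, edgeR). The groups did not overlap, but 5 of 11 alternatives lost the call. RNA of Ndufb2 stayed within its spread (0.026 ± 0.087 SE, adjusted p = 0.891).

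Ndufb4, a membrane arm subunit, and Ndufab1, the mitochondrial acyl carrier protein, had too few footprints to test. Ndufb4 had 357 to 605 RNA counts per library and 0 to 5 footprint counts, and Ndufab1 had 82 to 123 RNA counts and 5 to 13 footprint counts. RefSeq lists copies of both (Ndufb4b, Ndufb4c and Ndufab1-ps), and how reads that match several copies were counted is not stated in the sources used here. In RNA, Ndufb4 fell from 42.3, 57.8, 58.3 and 58.9 CPM to 39.3, 37.4, 41.5 and 37.5 CPM (log2 -0.48 ± 0.099 SE, adjusted p = 0.0110, edgeR). Control mouse 1 lay close to the knock-out range and the other 3 controls far above it. Ndufab1 RNA was not called (0.14 ± 0.13 SE, adjusted p = 0.553).

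Of the assembly factors, 1 of 7 was called lower in RNA (3.88% of all genes), and in footprints and TE 0 of 7 were called in edgeR's test or with DESeq2, with 1 and 2 at an unadjusted p under 0.05 in edgeR. Of all genes, 11.9% were called higher and 13.6% lower in footprints, and 3.59% and 4.07% in TE, and calls among 7 genes are too few to read against these shares. The medians were -0.12 in RNA, 0.058 in footprints and 0.17 in TE, and 6, 5 and 6 of the 7 lay in the same direction as most subunits. Their mean deviation per library did not overlap between genotypes in RNA (-0.00016 to 0.12 in controls, -0.12 to -0.020 in knock-out mice) and did in footprints. Within title prefixes their footprint median was -0.11, 0.027 and 0.13, so its sign was not shared, and over the libraries other than control mouse 9 it was -0.026. In RNA the 3 prefixes gave medians of -0.081, -0.20 and -0.12.

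Precision differed between the roles. Assembly factors had a median mean count of 332 in RNA and 156 in footprints, against 929 and 653 for the subunits. Accordingly the median SE of a TE difference was 0.15 for assembly factors and 0.092 for subunits, so a difference of a given size had a wider error in an assembly factor. Whether the assembly factors differed from the subunits was not tested.

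**Figure D4:**
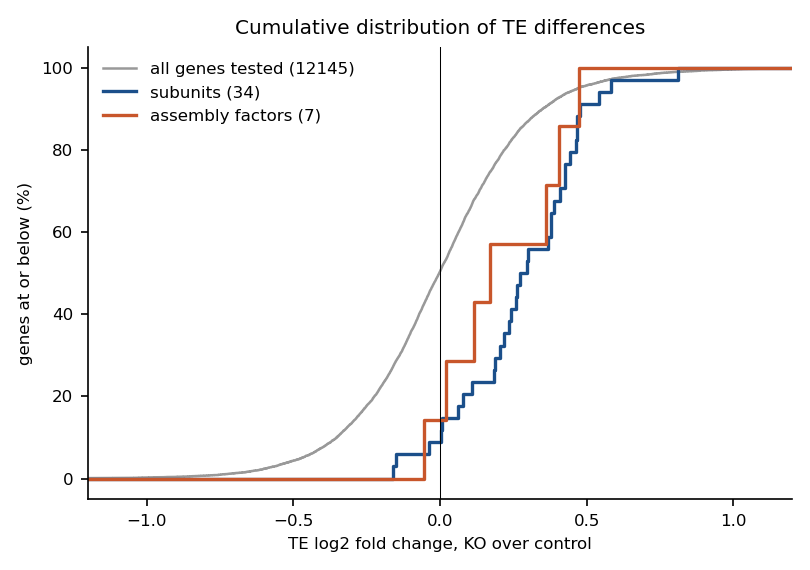
Cumulative share of genes (y axis, %) by TE log2 fold change (x axis) for all 12145 genes tested, 34 subunits and 7 assembly factors. The subunit curve has its median at 0.28, the assembly factor curve at 0.17 and the curve of all genes at -0.0026.

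Ndufaf2 is a paralog of Ndufa12 that holds its place during late assembly, and both fell in RNA. Ndufaf2 RNA was at 28.9, 27.4, 25.2 and 29.7 CPM in controls and 18.9, 23.0, 18.6 and 22.1 CPM in knock-out mice (log2 -0.42 ± 0.091 SE, adjusted p = 0.0132, edgeR). Its footprints were at 21.2, 22.9 and 20.6 CPM in controls and 19.7, 22.8 and 21.4 CPM in knock-out mice (log2 -0.019 ± 0.13 SE, adjusted p = 0.935). As with Ndufa12, the RNA groups stood apart and the footprints did not rise. The TE difference of Ndufaf2 was 0.41 ± 0.15 SE (adjusted p = 0.104), and its RNA call was lost in 4 of 18 alternatives.

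Ndufaf4, which acts with Ndufaf3 in building the quinone module, was the assembly factor closest to a TE call. Its footprints were at 13.9, 13.9 and 12.2 CPM in controls and 14.9, 18.4 and 16.5 CPM in knock-out mice, and RNA was at 25.5 ± 1.39 and 22.9 ± 1.21 CPM (SD, n = 4 each). The footprint groups did not overlap, yet the log2 difference of 0.32 ± 0.15 SE had an adjusted p of 0.107 (edgeR). In TE it was 0.47 ± 0.15 SE (adjusted p = 0.0544), as large as many called subunits but with a wider error.

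Ndufaf3 showed no such pattern, with footprints at 57.5 ± 4.38 and 57.3 ± 1.81 CPM and a TE difference of -0.053 ± 0.14 SE (adjusted p = 0.859, edgeR). Ndufaf1, part of the complex that assembles the membrane arm, was at 30.8 ± 1.68 and 33.0 ± 0.685 CPM in footprints (TE 0.12 ± 0.15 SE, adjusted p = 0.695). Ndufaf5, which hydroxylates an arginine of Ndufs7, was at 35.9 ± 3.89 and 37.1 ± 1.996 CPM (TE 0.17 ± 0.12 SE, adjusted p = 0.454). Ndufaf6, with the fewest counts, was at 8.79 ± 2.49 and 10.6 ± 0.773 CPM (TE 0.36 ± 0.21 SE, adjusted p = 0.328). Ndufaf7, an arginine methyltransferase, was at 47.7 ± 2.65 and 47.2 ± 1.99 CPM (TE 0.021 ± 0.10 SE, adjusted p = 0.928). For each of these 5 factors the footprint levels overlapped between genotypes, and none was called in any comparison.

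In control mice the footprint to RNA ratio had a median of 1.09 over the 34 subunits and 0.776 over the 7 assembly factors, and 0.912 over all genes tested. The region counted in each assay is not stated in the sources used here, so a ratio is read only against other genes of the same table. Ratios of subunits ran from 0.499 (Ndufb3) to 2.39 (Ndufb2), and those of assembly factors from 0.524 (Ndufaf4) to 1.76 (Ndufaf3), so the roles overlapped. The next lowest subunit was Ndufv2 at 0.591, and the next highest were Ndufc1 at 2.18 and Ndufa8 at 1.85. Ndufb2, Ndufc1 and Ndufa8, the 3 highest, were also the 3 subunits whose TE difference was below 0 (-0.16, -0.15 and -0.037, none called). Control ratios and TE differences share the control libraries, so the second is no separate evidence of the first. Across subunits the range narrowed to 0.729 to 2.19 in knock-out mice.

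**Figure D5:**
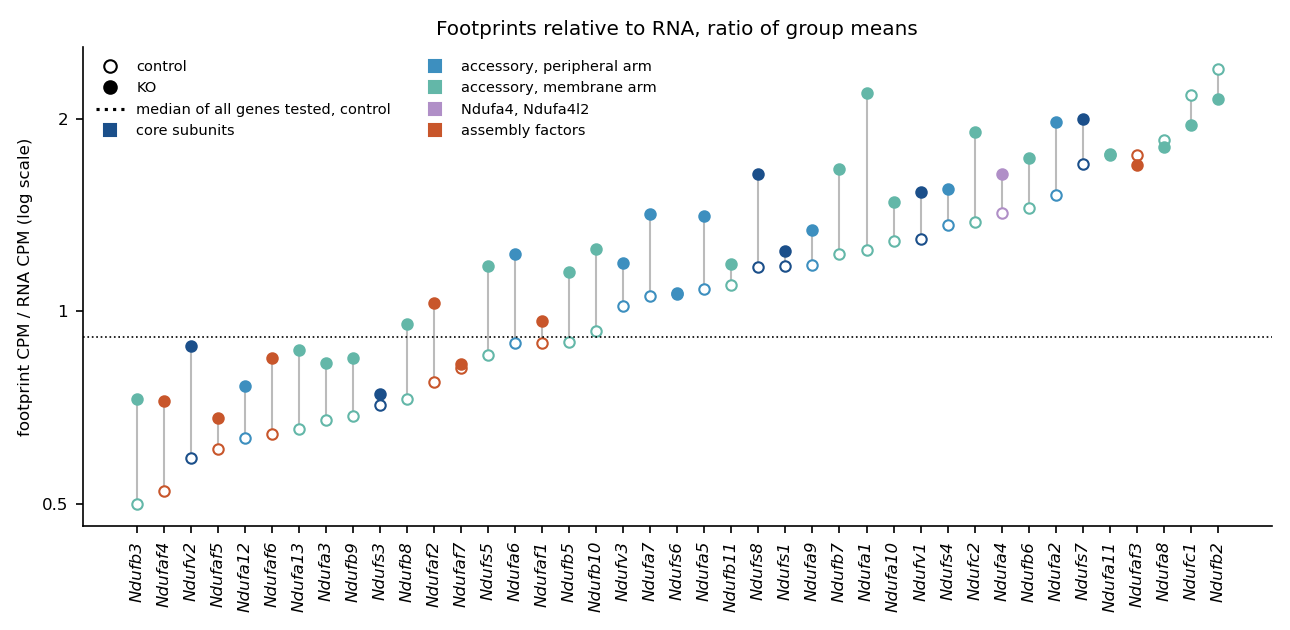
Ratio of mean footprint CPM to mean RNA CPM (y axis, log scale) of 41 Nduf genes tested in both assays, ordered by their control ratio, with controls open and knock-out mice filled. The dotted line is the control median of all genes tested (0.912). Most subunits move up, among them Ndufa1 from 1.25 to 2.19 and Ndufv2 from 0.591 to 0.883.

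Ndufa4, a small protein now assigned to complex IV, had RNA at 342 ± 51.2 and 299 ± 8.74 CPM (log2 -0.20 ± 0.083 SE, adjusted p = 0.164, edgeR) and footprints at 488 ± 16.3 and 490 ± 12.8 CPM (0.0067 ± 0.030 SE, adjusted p = 0.903). Its hypoxia-induced relative Ndufa4l2 had 3 to 11 RNA counts per library and was tested in footprints only (0.42 ± 0.36 SE, adjusted p = 0.440). Neither was called.

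Other genes of the pathway, from lists of known assembly factors and comparison groups, gave a mixed picture. Of the 12 assembly factors of complex I with other names that were in the table, 1 was called lower in RNA, 2 higher in footprints and 3 higher in TE (3.88%, 11.9% and 3.59% of all genes), with medians of -0.033, 0.11 and 0.12. Lyrm2, a LYR-motif protein, fell in RNA by 0.53 and rose in TE by 0.99 (adjusted p = 0.0116 and 0.0114, edgeR). Tmem126a and Tmem70, a factor shared with ATP synthase, were called higher in footprints (0.46 and 0.41) and TE (0.52 and 0.40). Acad9, Ecsit and Tmem126b, which act with Ndufaf1, were not called, nor was Ndufaf8, listed under the older symbol 1810043H04Rik and thus outside the rule (footprints 0.44, adjusted p = 0.220). Of 6 genes of complex II and its assembly, 0 were called in RNA in edgeR's test (4 at an unadjusted p under 0.05), and their medians were -0.13 in RNA, 0.066 in footprints and 0.13 in TE. Counts at an unadjusted p have throughout no share of all genes beside them, so they cannot be read against one. In footprints Sdhb was called higher (0.13) and Sdhd lower (-0.14), where 11.9% and 13.6% of all genes were, and in TE Sdhaf1 higher (1.04), where 3.59% were.

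Among 12 genes of general mitochondrial mass, 0 were called in RNA by edgeR (2 at an unadjusted p under 0.05), 4 were called higher in footprints and 2 higher in TE (11.9% and 3.59% of all genes), with medians of 0.0051, 0.049 and -0.0080. The outer membrane proteins Vdac3 and Tomm20 were called higher in footprints (1.04 and 0.44) and in TE (1.24 and 0.60), and Slc25a5 and Tfam in footprints (0.25 and 0.27). Citrate synthase (Cs) and Vdac1 were at 0.11 and 0.12 in RNA and at 0.028 and 0.035 in footprints, with no call. Of 7 regulators of mitochondrial gene transcription, the coactivator Ppargc1b was called higher in RNA (0.47) and lower in TE (-0.68), where 3.53% and 4.07% of all genes were. Nrf1, Gabpa, Gabpb1, Esrra, Ppargc1a and Yy1 were not called.

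With the nearly alike RNA libraries of knock-out mice 2, 4 and 7 summed to 1, which leaves 6 RNA libraries, 0 of 36 subunits were called lower in RNA by edgeR, with 13 at an unadjusted p under 0.05 and a median of -0.131, and with only mice 5 to 8 there were 2. The shares of all genes called lower were then 0.264% and 0.334%. The footprint count was 9 when RNA and footprint libraries shared 1 estimate of spread (5.95% of all genes), and TE calls were 11 without knock-out mouse 2 or 4 (1.48% and 1.59%). Leaving out the RNA of control mouse 8 and knock-out mouse 5 was chosen after the data were seen. It gave 18 subunits called lower in RNA and 22 higher in TE. The shares of all genes rose as well, to 11.1% and 7.83%.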

How the data were processed

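The authors deposited 1 table of whole-number counts per gene, with no normalization, for 8 RNA and 6 footprint libraries. Per the labels' protocols, footprint libraries were made without ligation from monosomes of RNase I-digested lysates, and RNA libraries were strand-specific after depletion of ribosomal RNA. The submitters' processing notes name Bowtie2, STAR 2.5, featureCounts, Subread 1.4.6 and the builds mm9 and mm10, without saying which served which assay. The annotation, the strand setting and the region counted are not given in the sources used here. The RNA columns that cover the same genes as the footprints were used, and the columns of exon counts served as an alternative. In 2849 genes these columns held no footprint and RNA values, and 27 gene names had been turned into dates. Mouse numbers and genotypes came from the labels, and the members and lists were chosen with earlier results of these data known.

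Genotypes were compared in each assay by edgeR's quasi-likelihood test of the counts (edgeR 4.0.16, R 4.3.3, TMM, filterByExpr with a minimum count of 10, two-sided). TE was tested over all 14 libraries as the interaction of assay and genotype, with TMM factors computed within each assay, for genes kept in both. P-values were adjusted by Benjamini and Hochberg's method over all genes tested, at a threshold of 0.05. SEs were derived from the F statistic. The test was also run on simulated data, but the outcome is not reported here and no call rests on it. Values were given for all assembly factors, the nuclear core subunits, up to 3 called subunits with the largest rise and fall in each comparison at a mean of at least 1 CPM, the 3 highest and 3 lowest footprint to RNA ratios, and members that failed the filter. The values of 1 member are not reported here, though it counts in the totals. Ndufa6, Ndufa4 and the other members and list genes with values were added by role after their values were seen. DESeq2 1.42.0, limma 3.58.1 (voom), unscaled library sizes, no filter on low counts, the title prefix or the mouse as a block, summed near-identical libraries and each library left out were the alternatives. Leaving out the RNA of control mouse 8 and knock-out mouse 5 was added after the data were seen. Mice 1 to 4 gave both an RNA and a footprint library, so these pair by animal per the labels, although their deviations from the group means did not move together (Pearson's r across genes 0.0033, 0.011, 0.034 and -0.013 for mice 1, 2, 3 and 4). Classes by protein length and levels per length, which were planned, were not made because a table of proteins was not used here. Promoters came from RefSeq (GRCm38.p6).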

Additional observations from a re-analysis of the deposited data

Results flagged for a closer look

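In the RNA groups of 4 libraries, 46 groups of the named genes were examined for a library far from the rest, by whether the gap to its nearest neighbour exceeded Dixon's 95% critical value as a share of the group's range. There were 3 such groups, where chance gives about 2.3. Ndufb4 RNA was at 42.3 CPM in control mouse 1 against 57.83 to 58.94 CPM in the other controls, a gap of 0.933 of the range. Ndufaf5 RNA was at 51.39 CPM in knock-out mouse 7 against 55.12 to 55.54 CPM, and Ndufb2 RNA at 87.36 CPM in knock-out mouse 7 against 80.55 to 81.1 CPM. Of these genes, Ndufb4 was called in RNA, and it was also called without control mouse 1.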

How the results depend on the processing

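The footprint median of the assembly factors turned from 0.0581 to -0.0258 without control mouse 9. No other median of subunits or assembly factors, and no called member, changed its direction. In RNA, subunits called lower numbered 7 to 14 when 1 mouse was left out (7 without control mouse 6 or knock-out mouse 2, 4 or 7, and 8 without control mouse 1), 0 with knock-out mice 2, 4 and 7 summed, with or without control mice 1 and 3 summed (edgeR, 13 and 12 at an unadjusted p under 0.05), and 2 with only mice 5 to 8. The assembly factor call in RNA was kept or lost (0 to 1) when 1 mouse was left out and was 0 with either sum and with only mice 5 to 8 (1 at an unadjusted p under 0.05 in each). The subunit median in RNA was -0.137 to -0.111 with 1 mouse left out, -0.137 in the exon columns, -0.136 with both sums, -0.145 in mice 1 to 4, -0.138 in mice 5 to 8 and -0.136 without the RNA of control mouse 8 and knock-out mouse 5, where 18 subunits were called lower. That of the assembly factors was -0.156 to -0.0548 with 1 mouse left out and -0.0637 in the exon columns. The share of all genes called lower in RNA was 1.36% to 6.21% with 1 mouse left out. In footprints, 1 fit over all 14 libraries left 9 subunits called higher, DESeq2 left 15, and leaving out 1 mouse 15 to 18. The shares of all genes called higher were then 5.95%, 6.36% and 9.38% to 10.5%. Unscaled library sizes took the footprint median of all genes from 0.0054 to 0.065 and gave footprint medians of 0.202 and 0.118 for subunits and assembly factors, with 1 assembly factor called; of all footprint calls 66.3% were then higher against 46.7%, and of TE calls 67.6% against 46.9%. With 1 mouse left out the footprint medians were 0.113 to 0.16 and -0.0258 to 0.0985. In TE, subunits called higher numbered 11 to 20 with 1 mouse left out (11 without knock-out mouse 2 or 4), and assembly factors 0 to 1. The share of all genes called higher in TE was then 1.48% to 4.99%. The TE median was 0.341 for subunits with unscaled sizes and 0.247 to 0.3 with 1 mouse left out, and 0.0969 to 0.246 for assembly factors. In the paired fit with the mouse as a replicate block, 21 subunits were called higher (6.89% of all genes) and the assembly factor median was 0.248. It was 0.246 without the RNA of control mouse 8 and knock-out mouse 5. Unscaled sizes, voom and that omission each called 1 assembly factor. The cause of these shifts was not tested.

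Over all genes, RNA calls were 1001 in the main test, 79 and 36 with the sums, 3273 in mice 1 to 4, 88 in mice 5 to 8, 3063 without control mouse 8 and knock-out mouse 5, and 356 to 1763 with 1 mouse left out. Footprint calls were 3102, against 1821 with DESeq2 and 1680 in 1 fit over all libraries. TE calls were 930, against 537 with both sums, 1818 with the replicate block, 1833 in mice 1 to 4, 1936 with voom, 2030 without those RNA libraries and 407 to 1287 with 1 mouse left out. Assembly factors had 27 to 346 footprint counts per library. The subunits Ndufb4 and Ndufab1, with 0 to 5 and 5 to 13, had too few to test.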
